A study of Mus musculus with 19 samples.

Results

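Krt7, Krt8, Krt18, Krt19 and Krt20 encode the keratins of simple epithelia, the single cell layers that line ducts, glands and hollow organs. The 5 genes were found by their symbols, and they are 5 of the 47 keratin genes and of the 17360 genes that had a tested probe set. They carry 7 probe sets, 3 for Krt8 and 1 for each of the others, and all 7 passed the filter on low values, an intensity over 20 in at least 1 of the 19 samples. The brightest of the 3 Krt8 probe sets stands for the gene unless another is named. On these arrays 4 of the 5 genes, Krt7, Krt8, Krt18 and Krt19, were overexpressed in the epithelium of the urogenital sinus relative to its mesenchyme and in the epidermis relative to the dermis, and Krt20 stayed near the low end of the scale in all 4 tissues. Between the epithelia all 4 genes were higher in the urogenital sinus, Krt7 least firmly. Only between the mesenchymal layers did they part into pairs. Krt18 and, less firmly, Krt8 were higher in urogenital sinus mesenchyme than in dermis, while Krt7 and Krt19 passed the threshold in neither direction. Krt7, Krt8 and Krt19, but not Krt18, passed the threshold for a larger compartment difference in the urogenital sinus than in skin.

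Keratins are intermediate filament proteins that assemble only as partners of an acidic, type I protein (Krt18, Krt19 and Krt20 here) and a basic, type II protein (Krt7 and Krt8 here). Krt8 and Krt18 are the partners found in nearly all simple epithelia and are the first keratins made in the embryo. In the prostate, which forms from the urogenital sinus, they mark luminal cells, whereas Krt5 and Krt14 mark basal cells. Stratified epidermis is built on Krt5 and Krt14 in its basal layer and on Krt1 and Krt10 above it, and its simple keratins are known mainly from the embryonic periderm and from Merkel cells.

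RNA was measured on 19 arrays of tissue from C57BL/6 mouse embryos of embryonic day 16: 6 of urogenital sinus epithelium (UGE), 5 of urogenital sinus mesenchyme (UGM), 4 of epidermis and 4 of dermis. UGE and UGM were parted after trypsin, and the layers of back skin by hand after a night in cold dispase, so that site and separation method change together and cannot be told apart. All embryos were of the 1 strain and stage with no genetic change or treatment named, and no sex was named. Each sample pooled the tissue of several embryos. Skin and urogenital sinus were taken from the same animals, hence pools of unlike tissue may hold the same embryos, and the p-values measure the spread between pools.

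The arrays carried transcripts of the neighbouring layer to different degrees. The median of 10 mesenchymal markers (Col1a1, Pdgfra and others) lay between 6.19 and 10.36 log2 in UGE, with replicates 2 and 3 at 10.31 and 10.36, between 12.10 and 12.41 in UGM, between 8.70 and 10.52 in epidermis and between 12.28 and 12.78 in dermis. The median of 9 markers of stratified epidermis lay between 8.83 and 9.50 in UGE, between 5.47 and 6.63 in UGM (highest in replicate 2), between 13.55 and 14.06 in epidermis and between 11.98 and 13.75 in dermis (highest in replicate 1, lowest in replicate 2). The dermis arrays thus held the markers of the epidermis at high levels. The hybridization control BioB also differed. It ranged from 8.21 to 9.29 for UGE, 7.47 to 8.23 for UGM, 8.88 to 9.30 for epidermis and 8.71 to 8.87 for dermis. The part of these differences in the results was not tested, and values that bear on it stand beside the results they touch.

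Krt7, Krt8 and Krt18 lie on chromosome 15, and Krt19 and Krt20 on chromosome 11. Krt8 and Krt18 are neighbours there on opposite strands, with 2 genes listed between them, Gm36026 and Gm41404. The 250 bases before the start of 3 members are shown because these genes moved together between compartments and parted between UGM and dermis. They are Krt8 and Krt18, partners in the filament, and Krt7, which like Krt8 is a type II keratin. Capitals mark the letters CACCTG, an E-box. The stretches are chr15:102004343-102004592 on the minus strand for Krt8, chr15:102027966-102028215 on the plus strand for Krt18 and chr15:101412153-101412402 on the plus strand for Krt7, all 5′ to 3′ from RefSeq on GRCm38.p6.
Krt8: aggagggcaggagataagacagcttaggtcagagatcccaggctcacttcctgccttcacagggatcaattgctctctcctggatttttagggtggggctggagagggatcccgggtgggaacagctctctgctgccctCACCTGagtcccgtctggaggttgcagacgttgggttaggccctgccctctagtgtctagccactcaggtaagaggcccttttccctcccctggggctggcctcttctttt
Krt18: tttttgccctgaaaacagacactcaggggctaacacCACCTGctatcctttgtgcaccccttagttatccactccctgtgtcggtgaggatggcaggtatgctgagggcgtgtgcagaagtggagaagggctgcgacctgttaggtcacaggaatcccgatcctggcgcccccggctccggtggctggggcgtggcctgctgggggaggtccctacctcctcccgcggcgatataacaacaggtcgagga
Krt7: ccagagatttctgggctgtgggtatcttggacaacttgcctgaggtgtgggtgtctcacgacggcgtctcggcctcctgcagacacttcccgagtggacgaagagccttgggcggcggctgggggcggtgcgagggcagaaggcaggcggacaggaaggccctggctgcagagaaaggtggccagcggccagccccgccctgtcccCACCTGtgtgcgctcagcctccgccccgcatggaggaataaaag
Of the 5 members 4 had such a stretch, and Krt19 is named only. The E-box CACCTG, searched on both strands, was present once in each of the 3 stretches shown, 105 bases before the start of Krt8, 208 before that of Krt18 and 38 before that of Krt7, and not in that of Krt20, whereas 17.2% of 32851 promoters of the same length held it. The TATA box TATAAA was present only before Krt20, 23 bases from its start, and 12.4% of the promoters held it. The GC box GGGCGG had 4 matches before Krt7 and none before the other 3 (32.7% of promoters), and the AP-2 pattern GCCNNNGGC had 2 before Krt7 and 1 before Krt18 (13.7%). The AP-1 pattern TGANTCA was in none of the 4 (6.75%). These matches describe letters in the genome, and no binding was measured.

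In the UGE, 4 of the 5 members were called higher than in the UGM and 0 lower, where a call is an adjusted p under 0.01 with more than a 2-fold change. Of all 17360 genes 6.75% were called higher and 10.0% lower in this comparison. The median log2 fold change of the 5 members was 4.31, beside 0.02 over all genes. Values are log2 intensity, a level of each probe set on its own scale, and UGE is given by its lowest, median and highest sample. In these tissue samples a difference in the number of cells that make a keratin cannot be told apart from a difference in its RNA per cell.

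Krt19, a type I keratin of ducts and of the bladder lining, lay at 13.95, 14.05 and 14.12 in UGE, against 7.85, 9.23, 7.91, 7.21 and 8.27 in UGM replicates 1 to 5. Krt7, its usual type II companion in ducts, lay at 11.99, 12.03 and 12.26 in UGE, against 6.58, 7.74, 5.71, 5.80 and 6.44 in the UGM replicates. The lowest UGE sample stood far above the highest UGM sample, replicate 2, for both genes. Krt19 was 61.9-fold higher in UGE (5.95 ± 0.27 log2, SE, adjusted p = 4.76e-09 by limma) and Krt7 48.8-fold (5.61 ± 0.30, adjusted p = 1.9e-08).

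Krt8 lay at 13.77, 13.96 and 14.08 in UGE, against 9.53, 10.65, 9.22, 8.98 and 9.81 in the UGM replicates. Krt18, its partner, lay at 12.58, 12.86 and 12.97 in UGE, against 9.28, 9.47, 9.02, 8.81 and 9.80. The groups did not overlap for either gene, and the UGM levels of Krt18 lay closer together than those of Krt8. Krt8 was 19.9-fold higher in UGE (4.31 ± 0.24, adjusted p = 2.89e-08), with the other 2 Krt8 probe sets at 4.11 and 4.36, and Krt18 was 11.8-fold higher (3.56 ± 0.16, adjusted p = 4.42e-09). A pseudogene of Krt8, Krt8-ps, is annotated, and signal from near-identical copies cannot be told apart from that of the gene.

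Krt20, a type I keratin of intestinal cells, the outermost bladder lining and Merkel cells, lay at 4.98, 5.24 and 5.89 in UGE, against 4.75, 5.01, 4.82, 4.73 and 4.74 in UGM. The 2 groups overlapped, and the difference of 0.50 ± 0.14 (adjusted p = 0.0166) was not called. Its mean intensity of 40.4 in UGE, 28.1 in UGM, 30.9 in epidermis and 33.1 in dermis was close to the lower quartile of the arrays, which ran from 26.1 to 30.2, so that this probe set gave little room to see a change.

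**Figure D1:**
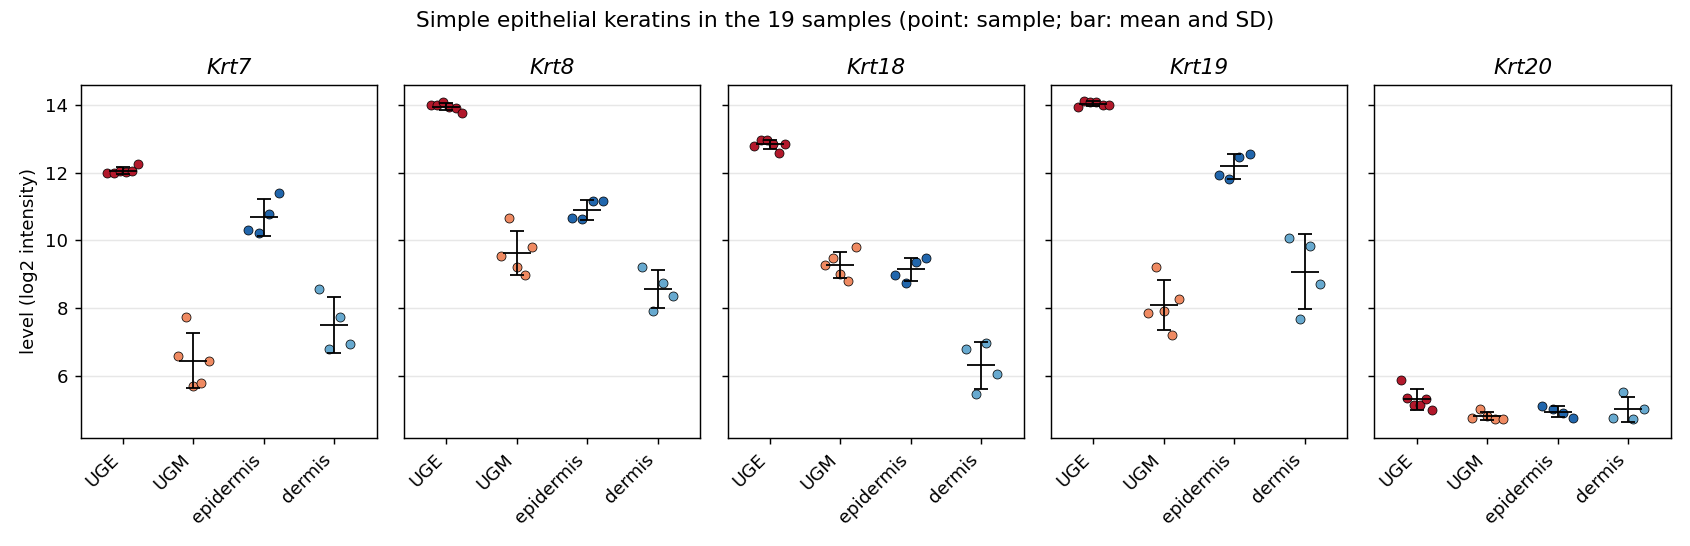
Level of each simple epithelial keratin (log2 intensity, vertical axis) in every sample of UGE, UGM, epidermis and dermis, with points for samples and bars for the mean and SD (n = 6, 5, 4 and 4). The UGE points lie above those of the other tissues for Krt7, Krt8, Krt18 and Krt19, and the Krt20 points of all 4 tissues lie between 4.73 and 5.89.

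The same 4 members were called higher in epidermis than in dermis and 0 lower, where 5.84% of all genes were called higher and 11.1% lower, and the median of the 5 members was 2.83 beside 0.01 over all genes. Krt7 lay at 10.32, 10.22, 10.79 and 11.40 in epidermis replicates 1 to 4, against 8.58, 6.79, 7.73 and 6.93 in dermis. Krt19 lay at 11.94, 11.81, 12.46 and 12.56 in epidermis, against 10.06, 7.67, 9.84 and 8.70 in dermis. Epidermis stood above dermis in each case, and the dermis samples spread far more than the epidermis samples. Krt7 was 9.04-fold higher in epidermis (3.18 ± 0.39, adjusted p = 0.000195 by limma) and Krt19 8.71-fold (3.12 ± 0.47, adjusted p = 0.000579). Krt19 lost its call with the methods' t-test (adjusted p = 0.0116).

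Krt8 lay at 10.67, 10.64, 11.15 and 11.16 in epidermis, against 9.21, 7.91, 8.75 and 8.35 in dermis. Krt18 lay at 8.97, 8.75, 9.36 and 9.49 in epidermis, against 6.79, 5.46, 6.96 and 6.04 in dermis. No dermis sample reached the lowest epidermis sample for either partner. Krt8 was 5.08-fold higher in epidermis (2.35 ± 0.26, adjusted p = 9.76e-05), with its other probe sets at 2.28 and 2.55, and Krt18 was 7.11-fold higher (2.83 ± 0.31, adjusted p = 1e-04). Krt20 lay at 4.75 to 5.10 in epidermis and at 4.74 to 5.54 in dermis, and the difference of −0.07 ± 0.18 (adjusted p = 0.821) turned to 0.11 without dermis replicate 2.

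Of the 42 other keratins 10 were called higher in epidermis than in dermis and 0 lower (median 0.38). They were led by Krt6a, a keratin of periderm and hair follicles (3.13 ± 0.44), Krt13 (2.80), Krt4 (2.80) and Krt77 (2.41). Changes of this size were thus not particular to the simple keratins. The epidermal keratins Krt5 and Krt14 did not pass the test in the skin, with changes of 0.57 ± 0.18 (adjusted p = 0.0317) and 0.69 ± 0.19 (adjusted p = 0.0184). Krt5 lay at 13.62 to 14.07 in epidermis and at 12.91 to 13.76 in dermis, so the 2 layers overlapped. Within each array the simple keratins exceeded this change: the epidermis over dermis difference of Krt7 was 2.61 larger than that of Krt5, that of Krt19 2.55, that of Krt18 2.26 and that of Krt8 1.78. Against Krt14 the same excess was 2.49 for Krt7, 2.44 for Krt19, 2.14 for Krt18 and 1.66 for Krt8. Each of these 8 comparisons had a two-sided exact permutation p of 0.0286, the smallest that 4 against 4 samples allow, and an adjusted p of 0.0327 over the 24 comparisons of this kind, all chosen after the values had been seen. These splits do not keep same-numbered samples together. With the epidermis and dermis samples taken as 4 pairs, the excess was positive in 4 of 4 pairs for each of the 8 comparisons, the exact p was 0.125, the smallest that 4 pairs allow, and none could pass.

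In the urogenital sinus Krt8 and Krt18 moved less than the basal keratins. Of the 42 other keratins 10 were called higher in UGE than in UGM and 0 lower (median 0.31), led by Krt4, a keratin of internal stratified epithelia (7.25 ± 0.41), and Krt15, a basal keratin (6.73 ± 0.51). Krt5 was 48.6-fold higher in UGE than in UGM (5.60 ± 0.32, adjusted p = 4.22e-08) and Krt14 was higher by 5.49 ± 0.19 (adjusted p = 6.82e-10). Krt14 had a mean intensity of 43.0 in UGM, near the level of Krt20, so the size of its change rests on the low end of the scale. The UGE over UGM change of Krt8 differed from that of Krt5 by −1.29, and that of Krt18 by −2.04 (exact permutation p = 0.00216 each, adjusted p = 0.013). That of Krt7 differed by 0.0047 (exact permutation p = 0.983), and that of Krt19 by 0.35 (exact permutation p = 0.154). Against Krt14 the difference was −1.18 for Krt8 and −1.93 for Krt18 (exact permutation p = 0.00216 each), 0.11 for Krt7 (exact permutation p = 0.665) and 0.46 for Krt19 (exact permutation p = 0.013, adjusted p = 0.024). That of Krt8 from Krt14 was −0.15 with 50 added before log2 (adjusted p = 0.485 by exact permutation).

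Between the epithelia of the 2 sites, UGE held more of Krt7, Krt8, Krt18 and Krt19 than epidermis, 4 members called higher and 0 lower, where 8.28% of all genes were called higher and 6.12% lower. The median of the 5 members was 1.85, beside −0.04 over all genes. The partners moved most: Krt18 was 12.9-fold higher in UGE (3.69 ± 0.24, adjusted p = 6.3e-10 by limma) and Krt8 8.26-fold (3.05 ± 0.26, adjusted p = 2.62e-08), with its other probe sets at 2.93 and 3.05. Krt19 was 3.61-fold higher (1.85 ± 0.38, adjusted p = 0.000768) and Krt7 2.60-fold (1.38 ± 0.36, adjusted p = 0.00542). The samples of UGE and epidermis did not overlap for any of the 4. Krt20 differed by 0.36 ± 0.16 (adjusted p = 0.0936), with overlapping samples.

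The call of Krt7 between the epithelia was the least firm of these. It was lost when UGE replicate 6 (1.34, adjusted p = 0.0111 by limma) or epidermis replicate 1, 2 or 3 was left out (1.26, 1.22 and 1.42, adjusted p = 0.0212, 0.0249 and 0.0123). It was also lost when UGE replicates 2 and 3, which carried mesenchymal transcripts, were left out together (adjusted p = 0.0115). The epidermis arrays carried such transcripts too, with medians of the mesenchymal markers between 8.70 and 10.52. Within each array Krt8 and Krt18 differed more between the epithelia than Krt7 and Krt19 did: Krt8 by 1.67 more than Krt7 and 1.19 more than Krt19, Krt18 by 2.31 and 1.84 more (exact permutation p = 0.00476 each, the smallest possible, adjusted p = 0.0143).

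Of the 47 keratins, 5 were called higher in UGE than in epidermis, the 4 members and Krt75, a hair follicle keratin (4.54 ± 0.17 log2). The 13 called lower in UGE were all among the other keratins, and the largest changes were those of Krt77 (−6.32 log2), Krt10 (−5.65) and Krt1 (−5.23), keratins of the upper epidermal layers. Krt14 fell by 2.62, and Krt5 differed by −0.95 ± 0.30 (adjusted p = 0.0168). The median over the 42 other keratins was −0.29.

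**Figure D2:**
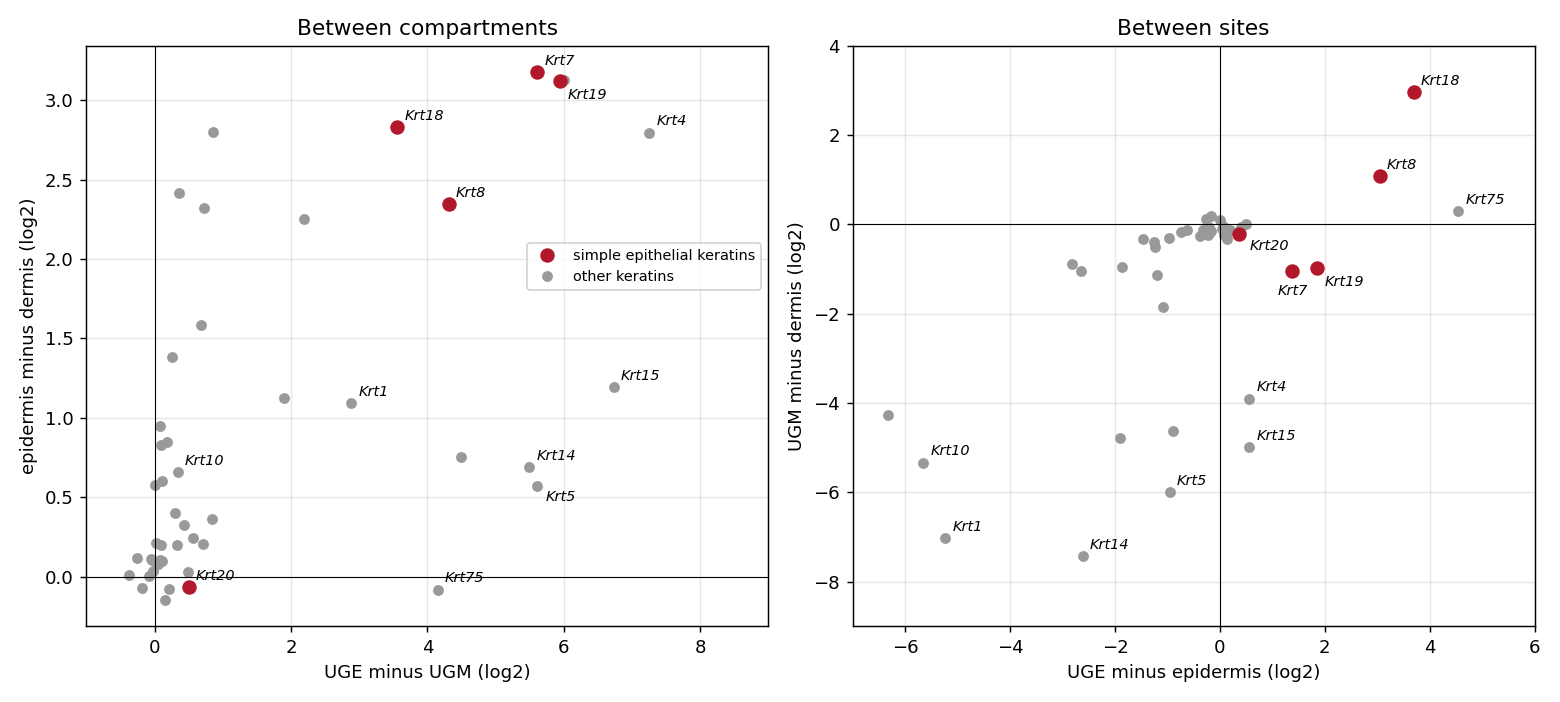
Log2 fold changes of the 47 keratins, red for the 5 simple epithelial keratins and grey for the 42 others, with UGE minus UGM against epidermis minus dermis on the left and UGE minus epidermis against UGM minus dermis on the right. On the right Krt8 and Krt18 lie above 0 on both axes, and Krt1, Krt10 and Krt14 far below 0 on both.

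Between the mesenchymal layers 2 members were called higher in UGM than in dermis, Krt18 and Krt8, and 0 lower, where 6.77% of all genes were called higher and 7.00% lower. The median of the 5 members was −0.20, beside −0.07 over all genes. Krt18 was 7.78-fold higher in UGM (2.96 ± 0.25, adjusted p = 2.79e-08 by limma), and its lowest UGM sample (8.81) lay above its highest dermis sample (6.96). Krt8 was 2.11-fold higher (1.08 ± 0.27, adjusted p = 0.00423), with its other probe sets at 1.10 and 1.23, and its groups overlapped, since UGM replicates 3 and 4 (9.22 and 8.98) lay near or below dermis replicate 1 (9.21). Krt7 (−1.05 ± 0.38, adjusted p = 0.035), Krt19 (−0.97 ± 0.40, adjusted p = 0.0634) and Krt20 (−0.20 ± 0.17, adjusted p = 0.377) were not called.

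The Krt8 call between the mesenchymal layers depended on single samples. It was lost without UGM replicate 2 (0.83, adjusted p = 0.00777, now under 2-fold), UGM replicate 5 (1.04, adjusted p = 0.0104), dermis replicate 2 (0.87, adjusted p = 0.023) or dermis replicate 4 (1.01, adjusted p = 0.0159). Krt7 was called lower in UGM without UGM replicate 2 (−1.37, adjusted p = 0.00291), and Krt19 without dermis replicate 2 (−1.44, adjusted p = 0.00342). Krt18 kept its call each time 1 sample was left out, with changes between 2.68 and 3.18.

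Set against each other within an array, the pairs parted in this comparison. The UGM over dermis change of Krt18 was 4.01 larger than that of Krt7 and 3.93 larger than that of Krt19, and that of Krt8 was 2.13 and 2.05 larger (exact permutation p = 0.00794 each, the smallest possible with 126 splits, adjusted p = 0.0159). Leaving out any 1 sample gave excesses of 3.76 to 4.29 for Krt18 and of 1.86 to 2.31 for Krt8. The epidermal keratins went the other way: 11 of the 42 other keratins were called lower in UGM and 0 higher, with Krt14 (−7.42), Krt1 (−7.02), Krt5 (−5.99) and Krt10 (−5.34) at the head, and the dermis arrays carried these at high levels. Krt18 and Krt8 were thus the only 2 of 47 keratins called higher in UGM than in dermis.

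Since the dermis arrays held epidermal transcripts, UGM was also set against epidermis, a comparison added after the order of the levels had been seen. Of all genes 14.6% were called higher in UGM and 8.88% lower. Of the members 3 were called lower in UGM and 0 higher: Krt7 (−4.23 ± 0.38, adjusted p = 1.83e-08 by limma), Krt19 (−4.10 ± 0.40, adjusted p = 6.18e-08) and Krt8 (−1.27 ± 0.27, adjusted p = 0.000791). For Krt8 the samples overlapped at 1 point, UGM replicate 2 (10.65) above epidermis replicate 2 (10.64). Krt18 stood at 9.27 ± 0.39 in UGM and 9.14 ± 0.34 in epidermis (SD, n = 5 and 4), a difference of 0.13 ± 0.25 (adjusted p = 0.695). Krt20 differed by −0.14 ± 0.17 (adjusted p = 0.527). Of the other keratins 18 were called lower in UGM and 0 higher.

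The order of the tissues thus differed between members. Krt7 averaged 12.06 ± 0.10 in UGE, 10.68 ± 0.54 in epidermis, 7.51 ± 0.82 in dermis and 6.45 ± 0.82 in UGM, and Krt19 14.05 ± 0.07, 12.19 ± 0.37, 9.07 ± 1.11 and 8.09 ± 0.74 in the same order of tissues (SD, n = 6, 4, 4 and 5). For both, the last 2 tissues did not differ past the threshold. Krt8 averaged 13.95 ± 0.10 in UGE, 10.90 ± 0.29 in epidermis, 9.64 ± 0.65 in UGM and 8.56 ± 0.56 in dermis, and every step was called by limma. Of these, UGM against epidermis (adjusted p = 0.0242) and UGM against dermis (adjusted p = 0.0741) lost the call with the methods' t-test. Krt18 averaged 12.83 ± 0.14 in UGE and 6.31 ± 0.69 in dermis, with UGM and epidermis between them and not apart. For Krt20 no step passed the test.

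The compartment differences at the 2 sites were then compared directly, as UGE minus UGM less epidermis minus dermis. This interaction was called positive for 3 members and negative for 0, where 7.53% of all genes were called positive and 5.41% negative. It was 2.83 ± 0.55 for Krt19 (adjusted p = 0.000858 by limma), 2.43 ± 0.52 for Krt7 (adjusted p = 0.00203) and 1.97 ± 0.38 for Krt8 (adjusted p = 0.00077), with the other Krt8 probe sets at 1.83 and 1.82. With the replicate block Krt7 lost its call (2.39, adjusted p = 0.0138), and with limma's treat, which tests for more than a 2-fold difference, none of the 3 was called (adjusted p = 0.0536 for Krt19, 0.154 for Krt7 and 0.218 for Krt8). Krt18 had 0.73 ± 0.35 (adjusted p = 0.183), although it was called between compartments at both sites, and Krt20 had 0.56 ± 0.24 (adjusted p = 0.113). With 50 added before log2 the Krt18 value was 1.23 (adjusted p = 0.00314). Of the other keratins 8 were called positive, led by Krt15 (5.54 ± 0.65) and Krt5 (5.03 ± 0.43), and 4 negative. The share of epidermal transcripts in the dermis arrays bears on the skin side of this difference, and its part in the interaction was not tested.

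**Figure D3:**
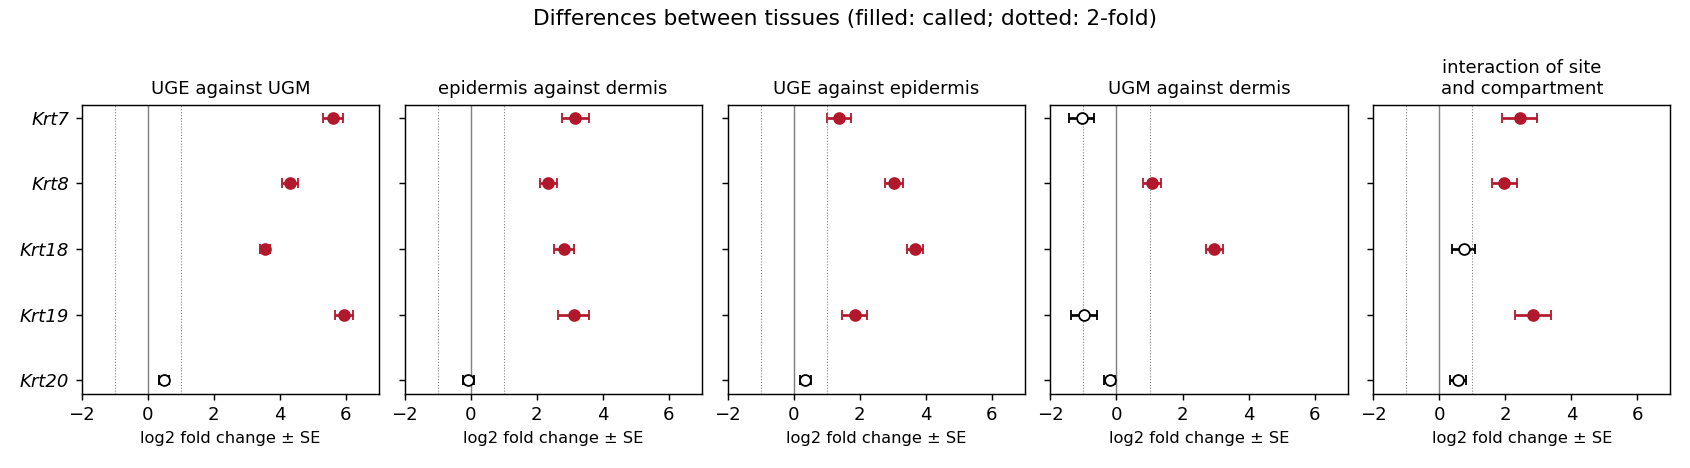
Log2 fold change of each simple epithelial keratin with its SE (horizontal axis), with 1 panel for each of the 4 comparisons and for the interaction, and filled points for calls (adjusted p under 0.01 and more than 2-fold, dotted lines). Krt18 is called in each panel but the interaction, Krt20 in none, and Krt7 and Krt19 lie below 0 without a call for UGM against dermis.

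Within the skin layers Krt7, Krt8, Krt18 and Krt19 shared nearly 1 order of samples. Krt20, near the low end of the scale, ran otherwise, with replicates 1, 2, 3 and 4 from high to low in epidermis and 2, 4, 1 and 3 in dermis. In the epidermis the order of the samples was replicates 4, 3, 1 and 2 from high to low for Krt7, Krt8, Krt18 and Krt19 alike. In the dermis it was 1, 3, 4 and 2 for Krt7, Krt8 and Krt19, and 3, 1, 4 and 2 for Krt18, and replicates 1 and 2 were also the dermis samples with the most and the least of the stratified epidermis markers. In the UGM replicate 2 was highest for Krt7, Krt8, Krt19 and Krt20 and also for Krt5 (8.78) and the stratified epidermis markers, but Krt18 was highest in replicate 5. The UGE samples differed little, by 0.17 to 0.39 from lowest to highest for Krt7, Krt8, Krt18 and Krt19, although replicates 2 and 3 carried mesenchymal transcripts.

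**Figure D4:**
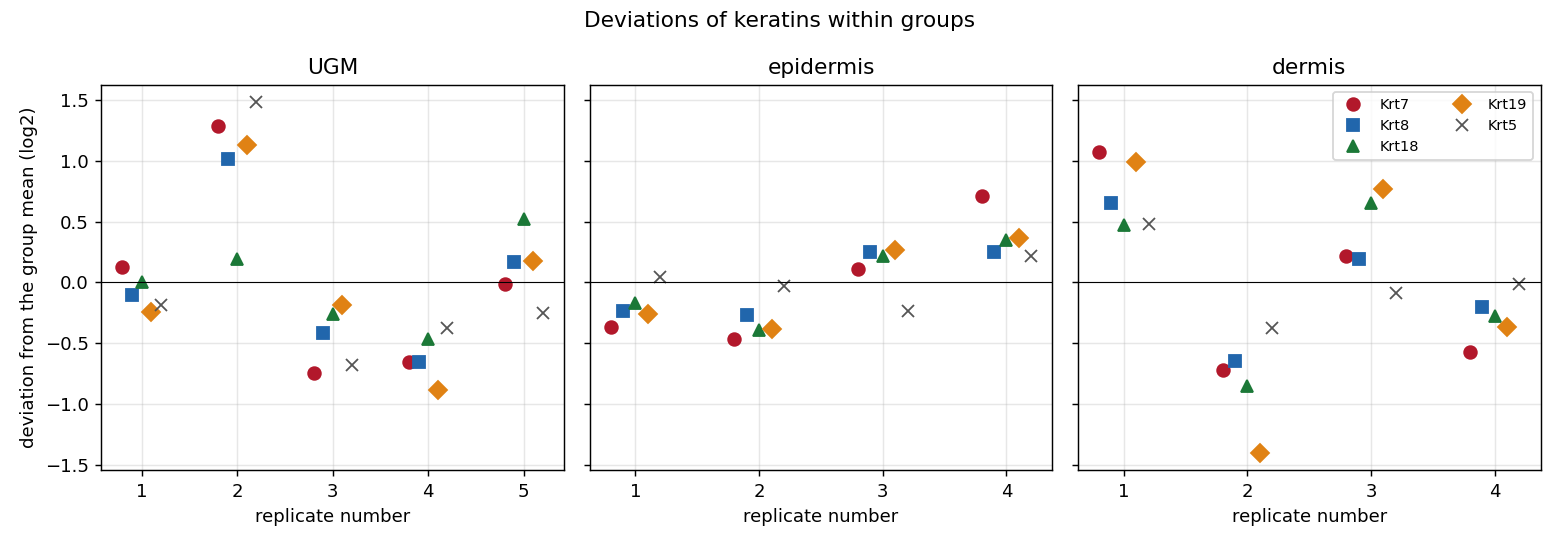
Deviation of Krt7, Krt8, Krt18, Krt19 and, for comparison, Krt5 from their mean in each group (log2, vertical axis) for every replicate of UGM, epidermis and dermis (horizontal axis). Replicate 2 stands high in UGM for all but Krt18, whose UGM values run only from 8.81 to 9.80, and low in dermis for all 5 genes.

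Over the 19 samples Pearson's r was 0.991 between Krt7 and Krt19 and 0.953 between Krt8 and Krt18. It was 0.738 between Krt18 and Krt7 and 0.774 between Krt18 and Krt19. Krt8 stood closer to both, with 0.893 for Krt7 and 0.915 for Krt19. These are descriptions of 4 tissue means and their spread, and the samples share their tissues and separation method. The genes most like Krt7 outside the keratins named here were Sprr1a, a cornified envelope precursor (r = 0.991), Upk1b, a uroplakin of the bladder lining (0.990), and Arg1, an arginase (0.990). For Krt19 they were Marveld3, a tight junction protein (0.992), Gstt3, a glutathione transferase (0.989), and Upk1b (0.989). Krt8 was most like Patj, a polarity scaffold (0.979), Myh14, a nonmuscle myosin (0.977), and Col4a6, a basement membrane collagen (0.977). Krt18 was most like Nipal3 (0.978), Sema4g, a semaphorin (0.978), and Dhrs3, a retinal reductase (0.973). Like Krt18, Nipal3 averaged more in UGM (8.35 ± 0.09) than in dermis (7.29 ± 0.32, SD). Krt20 had no close likeness, with Pm20d1 (0.799), 9430015G10Rik (0.788) and Mfsd4a (0.774) at the head.

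Genes that anchor or bind keratins followed the compartments. Of 13 linkers and partners, 11 were called higher in UGE than in UGM and 0 lower (median 3.59), led by Dsp, the desmosomal plaque protein that ties keratin filaments to the membrane (5.21 ± 0.30), and Sfn, a 14-3-3 protein that binds keratins (4.24 ± 0.19). In epidermis 8 were called higher than in dermis and 0 lower (median 1.54), led by the plakins Ppl (2.48 ± 0.41) and Evpl (2.24 ± 0.42). Between sites most went against Krt8 and Krt18. In UGE 7 were called lower and 1 higher than in epidermis (median −1.20), and in UGM 10 lower and 1 higher than in dermis (median −2.99). Krt7 and Krt19 were also below 0 in UGM against dermis, without a call. The exception was Pkp2, a desmosomal plakophilin of simple epithelia and heart, which averaged 9.56 ± 0.16 in UGE, 6.09 ± 0.18 in epidermis, 6.82 ± 0.25 in UGM and 5.22 ± 0.31 in dermis (SD). Pkp2 was higher in UGE than in epidermis (3.48 ± 0.14, adjusted p = 8.59e-13) and in UGM than in dermis (1.59 ± 0.15, adjusted p = 7.71e-08), as Krt8 and Krt18 were. The interaction was positive for 7 of the 13 and negative for 0 (median 1.62), and 10 were called lower in UGM than in epidermis and 0 higher.

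Of 17 measured genes of epithelial junctions and polarity, 16 were called higher in UGE than in UGM (median 4.38), led by Esrp1, an epithelial splicing regulator (5.79 ± 0.29), and Cdh1, E-cadherin (5.59 ± 0.27), and 14 were called higher in epidermis than in dermis (median 2.02). Prom1, a protein of membrane protrusions, was called lower in the epithelium at both sites (−2.05 and −2.14). Between epithelia 8 were called higher in UGE and 0 lower (median 1.01), with Cldn7, a claudin, at 5.79 ± 0.21 and Epcam, an adhesion protein of simple epithelia, at 2.54 ± 0.28. Between the mesenchymal layers 7 were called lower in UGM and 2 higher (median −0.84). Those 2 were Prom1 (2.44 ± 0.21) and Cldn7, which averaged 7.54 ± 0.51 in UGM and 5.83 ± 0.13 in dermis (SD), a change of 1.71 ± 0.22 (adjusted p = 5.24e-06). The interaction was called positive for 10 and negative for 0 (median 2.29), and 14 were called lower and 2 higher in UGM than in epidermis.

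Of 18 measured epithelial transcription factors, 14 were called higher in UGE than in UGM and 0 lower (median 4.54), led by Trp63, the master factor of stratified and basal epithelia (6.25 ± 0.34), and Ehf (5.92 ± 0.38). In epidermis 10 were called higher than in dermis and 1, Sox2, lower (−2.05; median of the list 1.20). Between epithelia 5 were called higher in UGE and 3 lower (median 0.10): the endodermal factor Foxa1 stood 7.72 ± 0.25 higher, Sox2 5.89 ± 0.22 and Foxa2 5.48 ± 0.11, while Klf4, a factor of the epidermal barrier, fell (−3.46). Between the mesenchymal layers 9 were called lower in UGM, with Trp63 at the head (−5.57), and 1 higher, Foxa1, which averaged 7.33 ± 0.76 in UGM and 5.64 ± 0.19 in dermis (SD), a change of 1.69 ± 0.26 (adjusted p = 4.06e-05). Foxa1 was highest in UGM at 8.65 and lowest at 6.69. The interaction was positive for 11 and negative for 0 (median 2.49), and 12 were called lower and 1 higher in UGM than in epidermis.

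Other intermediate filament genes, of neurons, muscle and mesenchyme and of the nuclear lamina, were set beside the keratins. Of these 14 genes 8 were called lower in UGE than in UGM and 0 higher (median −1.19), led by the neurofilament genes Nefl (−6.72) and Nefm (−6.40), and 4 were called lower in epidermis than in dermis and 0 higher (median −0.37), with Vim, vimentin, first (−1.53). UGM held more of Nefm (7.43 ± 0.19), Nefl (6.92 ± 0.35) and Prph, peripherin of peripheral neurons (6.65 ± 0.28), than dermis, 5 called higher and 1 lower in all (median −0.24). Between epithelia 1 was called higher in UGE and 2 lower (median −0.13). The interaction was positive for 1 and negative for 5, and 5 were called higher and 1 lower in UGM than in epidermis.

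Markers of other cells known for simple keratins were measured beside the members, and their part in the results was not tested. The 5 measured periderm markers had a median between 9.93 and 10.59 in UGE and between 4.82 and 6.18 in UGM. It lay between 10.13 and 11.26 in epidermis and between 8.28 and 10.37 in dermis. Of these markers 4 (Krt6a, Krt17, Sfn and Grhl3) stand in the lists above too. The median was highest in epidermis replicate 4 and dermis replicate 1, as were Krt7 and Krt19 and also the medians of the stratified epidermis and urothelium markers. In epidermis it was lowest in replicate 3, where it was the value of Sfn alone (10.13). Krt7 (10.79) and Krt19 (12.46) in that replicate stood above replicates 1 and 2. The 10 Merkel cell markers, listed without Krt20, had a median between 5.10 and 5.63 in UGE, between 7.08 and 7.42 in UGM, between 4.85 and 5.50 in epidermis and between 5.84 and 6.46 in dermis. The UGM median was carried by Isl1, which averaged 12.64 in UGM and 11.65 in UGE, and by the neuroendocrine genes Insm1, Rab3c, Chga and Syp (averages of 7.61 to 9.22 in UGM). Between epidermis and dermis 3 of the 10 were called lower and 0 higher, the factors Gfi1 (−2.77), Sox2 (−2.05) and Isl1 (−1.60). Atoh1, the factor that defines Merkel cells, averaged 5.91 ± 0.25 in UGE, 5.34 ± 0.10 in UGM, 6.48 ± 0.29 in epidermis and 6.23 ± 0.42 in dermis (SD). The 6 urothelium markers had a median between 10.11 and 10.30 in UGE, between 6.62 and 7.46 in UGM, between 7.97 and 8.73 in epidermis and between 6.83 and 7.55 in dermis. The 5 mesothelium markers, of which Upk1b and Upk3b are urothelium markers too, had a median between 9.74 and 10.18 in UGE. It lay between 6.00 and 7.94 in UGM, between 8.56 and 9.93 in epidermis and between 5.59 and 6.52 in dermis. In UGM these markers had Upk3b as their median, highest in replicate 2. They did not move as 1 group: Msln, mesothelin, and both uroplakins were called higher in UGE than in UGM, whereas Wt1, a factor of mesothelium and of some mesenchyme, averaged 6.22 ± 1.21 in UGE and 9.63 ± 0.63 in UGM (SD) and was called lower in UGE (−3.41 ± 0.53, adjusted p = 0.000252), and Lrrn4 differed by −0.65 (adjusted p = 0.00639) without a call. Wt1 was also called higher in UGM than in dermis (4.38 ± 0.49, adjusted p = 8.83e-07).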

How the data were processed

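Values are linear intensity per probe set of MOE430 2.0 arrays, normalized between arrays by the authors before they were deposited. The study's methods name GCOS 1.4, MAS5 and PLIER, and no source read here says which of these made this table. Detection calls were not used, and the number of arrays limits precision. Array medians ran from 76.2 to 81.6.

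The table has 45101 probe sets. Without 64 controls and those that never exceeded 20, it left 41549 for testing, as log2 values, by lmFit and eBayes of limma 3.58.1 (R 4.3.3, checked on simulated data). Adjusted p-values are Benjamini-Hochberg over all of these, and calls need an adjusted p under 0.01 and more than a 2-fold change. UGE against UGM and epidermis against dermis were fitted on their own samples, the rest on all 4 groups. Where a gene has several tested probe sets, that with the highest mean over all samples was used. Probe sets with 1 symbol (34945) name genes, while 932 have several and 9160 are unnamed here.

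The members and lists were chosen with earlier results of these data known. Named beside the members are up to 4 called genes of a list with the largest change, called genes that go against their list, Krt5, Krt14, Krt1 and Krt10, and the 3 genes most correlated with each member. Other genes were named after their values were seen. Changes within an array were compared by two-sided exact permutation of samples. Same-numbered epidermis and dermis samples deviated together only weakly (correlations 0.343, 0.108, 0.264 and 0.168), and epidermis replicate 2 matched dermis replicate 3 best. These numbers were taken as pairs, a reading that comes from the data and not from the labels. Promoters and gene positions come from RefSeq (GRCm38.p6). Alternatives were quantile normalization, the methods' t-test, other filters, 50 added before log2, an adjusted p under 0.05, limma's treat, trend and robust eBayes, other sample sets, other probe set rules, a replicate block and leaving out each sample.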

Additional observations from a re-analysis of the deposited data

Results flagged for a closer look

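Krt7 in UGE replicate 6 (12.26 log2) lay apart from the other 5 UGE samples, with a gap to the nearest of them of 0.729 of the group's range. Of 20 groups of samples of the members examined this way 1 stood out, and chance gives about 1 in 20.

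The UGE minus UGM change differed from the epidermis minus dermis change by 2.43 for Krt7, 1.97 for Krt8 and 2.83 for Krt19 in the interaction test, and not past the threshold for Krt18 and Krt20. The median of the stratified epidermis markers lay at 11.98 to 13.75 in dermis and at 5.47 to 6.63 in UGM, and the part of this in the difference was not tested.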

How the results depend on the processing

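The count of 4 calls between UGE and UGM was met under every setting tried. Between epidermis and dermis it was 3 with treat and with the t-test of the methods, by the loss of Krt19, and 4 whichever sample was left out. With limma's treat, which tests for more than a 2-fold change, 2 members were called between UGE and epidermis in place of 4, 1 between UGM and dermis in place of 2 and 0 for the interaction in place of 3. The count between UGM and dermis was also 1 with the methods' t-test, with 50 added before log2, with only the compared groups in the fit and with the replicate block, each by the loss of Krt8. Leaving out 1 sample gave 3 to 4 calls between UGE and epidermis, 1 to 2 between UGM and dermis and 3 each for the interaction and for UGM against epidermis.

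With the replicate block the skin calls did not change. Same-numbered UGE and UGM samples had correlations of −0.41 to 0.65 in their deviations. Replicate 1 (0.65) matched its own number best, whereas replicates 2 to 5 each matched another number best. The labels name no pairs. The block took the call from Krt7 between UGE and epidermis (1.34, adjusted p = 0.0334) and in the interaction (2.39, adjusted p = 0.0138), and from Krt8 between UGM and dermis (1.07, adjusted p = 0.0204). The cause was not tested. In same-numbered skin pairs the 8 excesses over Krt5 and Krt14 could not pass (exact p = 0.125, added after the values were seen).

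Signs turned only for values near 0. Krt20 between epidermis and dermis ran from −0.16 to 0.11 when 1 sample was left out, and Krt18 between UGM and epidermis from −5e-04 to 0.25. The difference of Krt7 from Krt5 between UGE and UGM ran from −0.097 to 0.12, and was −0.25 with 50 added before log2, and that of Krt7 from Krt14 ran from −0.058 to 0.26. Krt8 lost its call between UGM and epidermis with the methods' t-test (adjusted p = 0.0242). The difference of Krt19 from Krt14 between UGE and UGM had an adjusted p over 0.05 without UGE replicate 2, 4, 5 or 6 (adjusted p = 0.0544 by exact permutation).

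Of the members' fold changes 663 kept direction and side of the threshold, 25 lost the call, 4 gained it and 2 turned. Over the whole table treat called 2524 probe sets in place of 5506 between UGE and UGM, 1434 in place of 5681 between epidermis and dermis, 1685 in place of 4984 between UGE and epidermis, 1627 in place of 5049 between UGM and dermis, 1083 in place of 3870 for the interaction and 3805 in place of 7752 between UGM and epidermis. With 50 added, the counts were 3686, 3296 and 3140 for the skin layers, the epithelia and the mesenchymal layers. With 1 averaged value per gene fewer features were tested, and the 6 counts were 2506, 2430, 2018, 2040, 1987 and 3475. Low signal limits what Krt20 can show.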

Other observations

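Krt20 is also known from intestinal cells, and markers of intestinal and secretory cells were read beside it. Of 8 markers of intestinal and secretory epithelium, 2 were called higher in UGE than in UGM and 2 higher than in epidermis, and 0 lower, while 6 were not called (medians 0.10 and 0.02). These 2 were Clca1, a secreted protein of mucous cells, at 11.80 ± 0.38 in UGE, 4.58 ± 1.01 in UGM, 4.10 ± 0.11 in epidermis and 3.80 ± 0.14 in dermis (SD, n = 6, 5, 4 and 4), and Agr2, a chaperone of mucin folding, at 6.86 ± 0.70 in UGE, 4.05 ± 0.24 in UGM, 3.98 ± 0.15 in epidermis and 4.06 ± 0.16 in dermis. None of the 8 was called between epidermis and dermis or between UGM and dermis. Both genes were named after their values had been seen.

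Of the 4 measured mesonephric duct markers, 3 were called higher in UGE than in epidermis and 1 higher in UGM than in dermis, Ret, a receptor tyrosine kinase (5.81 ± 0.18). Ret was called lower in UGE than in UGM (−1.99), and the median of the 4 lay between 6.14 and 7.88 in UGE (replicates 2 and 3, which carried mesenchymal transcripts, at 7.84 and 7.88, the others up to 6.57), between 5.30 and 6.29 in UGM, between 4.45 and 4.88 in epidermis and between 4.56 and 4.89 in dermis.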
